A study of Mus musculus with 12 samples.

Results

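The comparison sets 6 kidney cortex libraries labelled captopril against 6 labelled water, as the mean of the captopril effect in controls and the captopril effect in glomerulonephritis (GN, an inflammatory disease of the glomeruli), with these arms, the control arm and the GN arm, given the same weight. All 12 libraries of the series take part: 3 of control mice given water (Control_water), 3 of control mice given captopril (Control_captopril), 3 of GN mice given water (GN_water) and 3 of GN mice given captopril (GN_captopril). The mice were adult C57BL/6, labelled male. GN was induced with intraperitoneal horse spleen apoferritin, 10 mg on 5 days a week, and lipopolysaccharide, 100 micrograms 3 times a week, both for 6 weeks, while controls received saline. Kidneys were taken at week 9, so the apoferritin and lipopolysaccharide were given to both GN groups and to neither control group. No dose or start of captopril stands in the labels. Whether a library holds RNA of 1 mouse or of a pool is not stated, so p-values measure only the spread between these libraries.

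Captopril blocks angiotensin-converting enzyme, which turns angiotensin I into angiotensin II and also breaks down bradykinin. Angiotensin II constricts vessels, drives aldosterone release and sodium uptake, and feeds back on the renin-producing cells of the glomerular arteriole, so that kidney renin is known to rise when the enzyme is blocked. The kidney cortex is made mostly of proximal tubule, a segment that burns fatty acids, makes glucose and follows the body clock.

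The labels need care in every result below. Libraries of Control_water and GN_captopril carried Y-linked transcripts (4 genes summing to 121 to 144 CPM, read counts scaled to library size), while those of Control_captopril and GN_water carried Xist, the RNA of the silenced X chromosome (181 to 375 CPM), although all are labelled male. The 6 libraries on each side of the average hold 3 of each kind. With these labels the average is, by arithmetic, the same number as 50% of the difference between the GN effect in the Y-marker pair (GN_captopril minus Control_water) and the GN effect in the Xist pair (GN_water minus Control_captopril), so a difference with the treatment label and a GN response that differs with the markers cannot be told apart. Ren1, the gene of renin, averaged 0.14 ± 0.15, adjusted p = 0.598, with -4.16 in controls and 4.45 in GN, so it was lower with the captopril label in one arm and higher in the other. Totals ran from 14.2 to 22.8 M (mega) counts. Counts of 7 markers of the adrenal cortex, a gland beside the kidney, reached 7000 in Control_captopril replicate 3, 1657 in the third GN_captopril library and 351 in the second, and were 17 to 137 in the other 9.

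Genes higher with the captopril label in controls and in GN included Pck1 of gluconeogenesis and the carnitine importer Slc22a5, and genes lower in both included the sterol synthesis gene Fdps, the collagen gene Col1a1 and the injury marker Lcn2. Called one way in both arms were 5 of 26 sterol genes, 2 of 40 matrix genes and 2 of 20 clock genes. These are a minority of each list, but larger shares than the 0.787% of all genes tested. The clock genes Dbp, Ciart and Tef were higher with the captopril label in GN, and their differences in controls were -0.10, -0.31 and -0.31 on the log2 scale. Of 14618 genes tested with edgeR, 464 were higher (3.17%) and 488 lower (3.34%) at an adjusted p under 0.05, 6.51% in all, and 15 and 24 of them differed at least 2-fold. At an unadjusted p under 0.05 there were 3491. The median log2 fold change over all genes was -0.02. The arms taken alone gave many more calls: 2247 higher (15.4%) and 2484 lower (17%) in controls, 32.4% in all, and 2869 higher (19.6%) and 3725 lower (25.5%) in GN, 45.1% in all. The arms differed from each other, by the interaction test, for 7406 genes (50.7%), among them 651 of the 952 called in the average.

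Most genes called in the average were past the threshold in 1 arm only, although 535 of the 952 had the same sign in both arms. Of the 952 genes, 115 (0.787% of those tested) were past the threshold in the average and in both arms one way, 51 higher (0.349%) and 64 lower (0.438%). A further 182 were called in controls but not in GN, 469 in GN but not in controls, 180 in both arms in opposite directions, and 6 in neither. In all genes tested, the 6 captopril-labelled libraries lay above all 6 water-labelled ones for 50 (0.342%) and below for 60 (0.41%). Because the arms make up the average, the count of 115 is a description and no further test. A model with 1 term for disease and 1 for treatment, in which the difference between the arms counts as spread, called 9 genes higher and 13 lower, and all 22 were among the 115. With each of the 12 libraries left out in turn, 364 of the 952 calls held every time, 80 of the 115 among them.

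**Figure D1:**
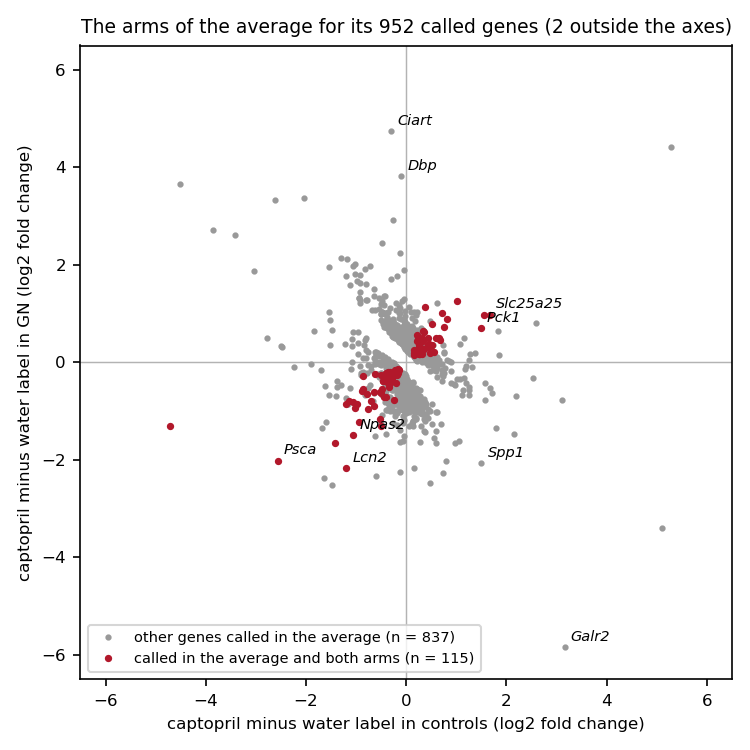
Captopril minus water label in controls (horizontal, log2 fold change) against the same in GN (vertical) for the genes called in the average, with 2 genes outside the axes. The 115 genes called in both arms (red) lie in the lower left and upper right, and the other 837 (grey) lie mainly close to one axis or in the opposite quadrants.

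Among genes higher in both arms, Pck1 carried the most RNA of those changed by at least 2-fold. Pck1 encodes the cytosolic enzyme that commits carbon to gluconeogenesis (chromosome 2, 173153073 to 173159274, GRCm38). Its level was 1596, 1149 and 1326 CPM in Control_water, 4281, 2778 and 4329 in Control_captopril, 1017, 1142 and 718 in GN_water and 1527, 1553 and 1605 in GN_captopril. All 3 Control_captopril libraries lay above every other library, and GN_captopril lay above GN_water but overlapped Control_water. The averaged difference was 1.09 ± 0.13, adjusted p = 0.000735 (log2 fold change ± SE, edgeR), with 1.48 in controls and 0.70 in GN. It held in all 12 fits with a library left out. G6pc, the enzyme that releases glucose at the end of the same pathway, moved the other way (-0.29 ± 0.070, adjusted p = 0.0306).

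Slc25a25, a mitochondrial carrier of ATP-Mg and phosphate (chromosome 2, 32414487 to 32451470), was at 42, 39.5 and 41.3 CPM in Control_water, 112, 81.1 and 199 in Control_captopril, 41.4, 35.6 and 29.4 in GN_water and 74.9, 67 and 67.7 in GN_captopril. All 6 captopril-labelled libraries lay above all 6 water-labelled ones (1.32 ± 0.17, adjusted p = 0.00125). Control_captopril replicate 3, the library with the most adrenal marker counts, was the highest. Without it and GN_captopril replicate 3 the adjusted p was 0.000338. The same separation of 6 from 6 held for Slc16a14, a member of the monocarboxylate transporter family (30.5 to 38.5 CPM in Control_water, 51.9 to 104 in Control_captopril, 22 to 27.4 in GN_water and 50.7 to 71.6 in GN_captopril, 1.14 ± 0.16, adjusted p = 0.00201). Azin1, which blocks the breakdown of ornithine decarboxylase, had the smallest adjusted p of the genes called in both arms: it was at 132, 117 and 126 CPM in Control_water, 157, 149 and 159 in Control_captopril, 115, 112 and 112 in GN_water and 158, 155 and 163 in GN_captopril (0.40 ± 0.038, adjusted p = 0.000241). The libraries separated 6 from 6.

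Some metabolic genes among those called in both arms were named after their values were seen. Slc2a5, the fructose transporter GLUT5, averaged 0.42 ± 0.073. Tkfc, a kinase of fructose breakdown, averaged 0.38. The others were Slc22a5, the carnitine importer (0.33 ± 0.053), Vnn1, a pantetheinase that is a known target of the fatty acid receptor PPAR-alpha (0.48 ± 0.068), Pex11a, which divides peroxisomes (0.35 ± 0.056), and Gpd1, which makes glycerol phosphate (0.30 ± 0.052). Vnn1 was at 199.9, 178 and 161 CPM in Control_water, 236, 206 and 233 in Control_captopril, 109, 98.8 and 84.6 in GN_water and 144, 155 and 158 in GN_captopril. Within each disease state the captopril-labelled libraries were above the water-labelled ones, while GN_captopril lay below all of Control_water. For Ppard, the receptor PPAR-delta, the order was turned: 56.7, 52.1 and 45.3 CPM in Control_water, 30, 33.1 and 31.7 in Control_captopril, 65.1, 54.1 and 54.6 in GN_water and 36.7, 38.6 and 25 in GN_captopril. It was lower in both arms (-0.75 ± 0.095, adjusted p = 0.00112), with no overlap between 6 and 6.

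Further genes were called higher in both arms. Fkbp5, a cochaperone that glucocorticoids induce, averaged 0.65 ± 0.12, adjusted p = 0.00941, yet of the 20 glucocorticoid-response genes tested it was the only one higher, with 3 lower (5 without Control_captopril replicate 3, and 2 higher without Control_captopril replicate 2). The share of that list called was 20%, against 6.51% of all genes tested. Lcn2, also on that list, was called lower in both arms. Bdnf, a neurotrophin, was at 5.49, 3.88 and 3.09 CPM in Control_water, 6.91, 6.77 and 7.08 in Control_captopril, 2.75, 3.62 and 3.56 in GN_water and 5.91, 8.23 and 5.81 in GN_captopril, with every captopril-labelled library above every water-labelled one (0.86 ± 0.14, adjusted p = 0.00425). Tgm1, a transglutaminase, averaged 0.76 ± 0.10, adjusted p = 0.00109, and its difference was larger in GN (0.38 in controls and 1.14 in GN). Lrrc75b, at 5.35 to 5.74 CPM in Control_water, 8.45 to 10.7 in Control_captopril, 5.78 to 6.74 in GN_water and 9.37 to 12.2 in GN_captopril, gave nearly the same difference in the arms (0.74 in controls and 0.72 in GN). Slc16a6 averaged 0.58 ± 0.13, adjusted p = 0.0184 and lost its call without Control_water replicate 2, at adjusted p = 0.0501.

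**Figure D2:**
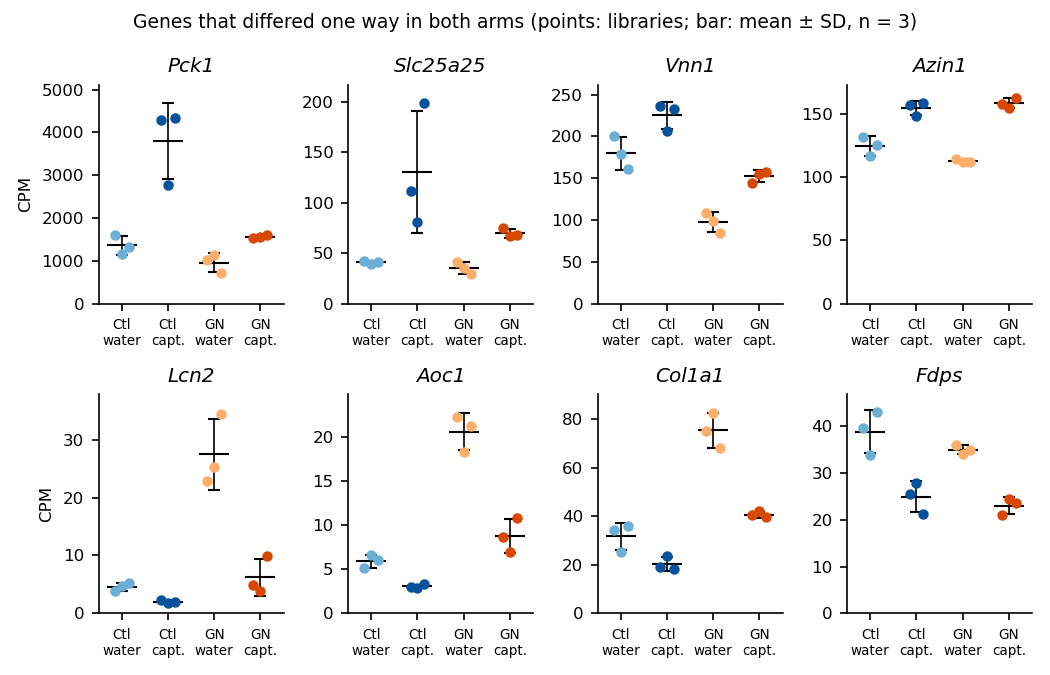
CPM (vertical, from 0) of 8 genes called one way in both arms, by labelled group (Ctl, control; capt., captopril), with points for libraries and bars for mean ± SD of 3. Pck1, Slc25a25, Vnn1 and Azin1 are higher, and Lcn2, Aoc1, Col1a1 and Fdps lower, in captopril-labelled than in water-labelled libraries of the same disease state.

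Of the fatty acid oxidation genes 33.3% were called, against 6.51% of all genes tested, and none was called lower. Of 39 tested, 13 were higher and 0 lower in the average by edgeR, with 20 higher and 0 lower at an unadjusted p under 0.05 and 15 higher and 0 lower by DESeq2 (median log2 fold change 0.15, against -0.02 over all genes), with 9 of the 13 called in all 12 fits that leave a library out. None of the 13 was called in both arms: in controls 15 of the list were higher and 9 lower, in GN 19 higher and 12 lower. The shares of all genes tested were 15.4% higher and 17% lower in controls, and 19.6% higher and 25.5% lower in GN. Cpt1a, which lets fatty acids into mitochondria, differed in GN and not by the test in controls (-0.027 in controls (adjusted p = 0.791) and 0.83 in GN (adjusted p = 4.93e-07)). Its level was 530.2 to 600.2 CPM in Control_water, 532 to 582 in Control_captopril, 328 to 359 in GN_water and 577 to 645 in GN_captopril, with GN_water the low group (average 0.40 ± 0.045). Slc25a20, the carnitine-acylcarnitine carrier, showed the reverse (0.53 in controls (adjusted p = 0.000175) and 0.11 in GN (adjusted p = 0.299)). Ppara, the receptor that switches many of these genes on, averaged 0.39 ± 0.077, adjusted p = 0.011. With 1 library left out the list gave 9 to 17 higher and 0 lower, and without the 3 libraries with the most adrenal markers 5 higher.

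Proximal tubule genes at large gave 6 higher and 2 lower of 36 (22.2%, against 6.51% of all genes tested), with a median of 0.07. The count of higher genes depended on single libraries. It ran from 1 higher without Control_water replicate 2, GN_captopril replicate 1 or GN_captopril replicate 2 to 11 without Control_captopril replicate 2 or GN_captopril replicate 3. It was 2 without Control_water replicate 3, Control_captopril replicate 1 or Control_captopril replicate 3, and 10 without Control_water replicate 1. The summed level of the list followed the sex-linked markers: 69066 to 74151 CPM in Control_water and 65721 to 66932 in GN_captopril, but 38672 to 43447 in Control_captopril and 29686 to 35219 in GN_water. The part of those markers in the list's result was not tested.

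Cholesterol synthesis and uptake genes that passed the test were all lower. Of 26 tested, 14 were lower and 0 higher by edgeR (53.8%, against 6.51% of all genes), with a median of -0.23, and 11 of the 14 held in all 12 leave-one-out fits. At an unadjusted p under 0.05, 18 were lower and 3 higher, and DESeq2 called 14 and 0. Their sterol-regulated activator is the product of Srebf2, which was itself lower in both arms: 129.6, 118 and 115 CPM in Control_water, 106, 104 and 101 in Control_captopril, 123, 129 and 126 in GN_water and 108, 107 and 97.5 in GN_captopril (-0.25 ± 0.041, adjusted p = 0.0048). The 6 captopril-labelled libraries lay below the 6 water-labelled ones, by a small step. Fdps, which makes farnesyl pyrophosphate, the branch point to sterols, was at 39.7, 33.9 and 43 CPM in Control_water, 25.5, 27.9 and 21.3 in Control_captopril, 35.9, 34 and 34.9 in GN_water and 20.9, 24.4 and 23.7 in GN_captopril. It was lower by nearly the same amount in controls and GN (-0.64 in controls and -0.60 in GN, average -0.62 ± 0.073, adjusted p = 0.000735), again with no overlap. Fdft1, squalene synthase, the first step given to sterols alone, averaged -0.33 ± 0.066, adjusted p = 0.0117. Msmo1, which removes methyl groups from the sterol ring, averaged -0.57 ± 0.069, adjusted p = 0.000906, more in controls than in GN (-0.87 in controls and -0.27 in GN). The list also counts Srebf2 itself and Abca1, which exports cholesterol from cells and is known to be switched on by sterols. Abca1 was lower (-0.40 ± 0.082, adjusted p = 0.0134). With Srebf2, Fdps, Fdft1 and Msmo1 it makes the 5 list members called in both arms.

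The rest of the sterol list was not called one way in both arms. By the interaction test the arms differed for 17 of the 26, against 50.7% of all genes tested. In controls 18 of the 26 were lower and 2 higher, and in GN 8 lower and 7 higher. Among all genes tested, 17% were lower and 15.4% higher in controls, and 25.5% lower and 19.6% higher in GN. Cyp51, the sterol demethylase, held its call in 5 of the 12 fits (0.19 in controls and -0.80 in GN). With the 3 adrenal-marked libraries left out, 6 of the 26 were lower and 0 higher, and the model with 1 term each for disease and treatment called 1, Fdps. Srebf1, the activator of fatty acid synthesis, averaged -0.53 ± 0.089, adjusted p = 0.00453, all of it from controls (-1.08 in controls and 0.014 in GN).

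Matrix genes that passed the test were all lower, with more of the list called in GN than in controls. The share called in the average was 35%, against 6.51% of all genes tested. Of 40 tested, 14 were lower and 0 higher in the average by edgeR, with a median of -0.35, and 11 of them held in all 12 fits. At an unadjusted p under 0.05, 28 were lower and 0 higher, and DESeq2 called 18 and 0. In GN 34 of the 40 were lower and 1 higher. In controls 4 were lower and 5 higher. Over all genes tested, 25.5% were lower and 19.6% higher in GN, and 17% lower and 15.4% higher in controls. Written as the GN response, the list's median rose by 1.11 in the Xist pair and by 0.37 in the Y-marker pair, which is the same contrast seen from the other side. In whole tissue, fewer cells of a type and less RNA per cell cannot be told apart. Col1a1, the main chain of fibrillar collagen I (chromosome 11, 94936224 to 94953042), was 1 of the 2 list members called in both arms. Its level was 34.3, 25.5 and 35.8 CPM in Control_water, 19.2, 23.5 and 18.4 in Control_captopril, 75.4, 82.8 and 68.4 in GN_water and 40.4, 42.1 and 39.8 in GN_captopril. Captopril-labelled libraries lay below water-labelled ones within controls and within GN (-0.65 in controls and -0.89 in GN, average -0.77 ± 0.085, adjusted p = 0.000533), and the GN libraries labelled captopril still lay above every control. Col15a1, a basement-membrane collagen, was the other (-0.56 ± 0.091, adjusted p = 0.00411). Outside the list, Col12a1 (-0.57 ± 0.082), Mgp, an inhibitor of calcification (-0.58 ± 0.085), and C7, a late complement component (-0.71 ± 0.10), were lower in both arms, and these were named after their values were seen.

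The other matrix members were called through GN. Col3a1 was at 61.4, 47.9 and 62.2 CPM in Control_water, 40.7, 44.7 and 50.6 in Control_captopril, 169.7, 199 and 147 in GN_water and 88.4, 76.4 and 117 in GN_captopril, with GN_captopril far below GN_water and the control groups overlapping (-0.34 in controls (adjusted p = 0.124) and -0.88 in GN (adjusted p = 0.000461)). Acta2, the actin of smooth muscle and activated fibroblasts, was at 28.5, 29.2 and 35.5 CPM in Control_water, 33.6, 31.7 and 30.6 in Control_captopril, 58.4, 57.6 and 50.9 in GN_water and 27.4, 29.7 and 31.7 in GN_captopril (0.045 in controls and -0.91 in GN), with GN_captopril overlapping the controls. Sparc, a collagen-binding matrix protein, gave the same pattern (0.017 in controls and -0.82 in GN). Col18a1 was lower in all 6 captopril-labelled libraries than in the 6 others (-0.37 ± 0.060, adjusted p = 0.00407), although the control arm alone did not pass (adjusted p = 0.073). Without GN_captopril replicate 3 the list gave 20 lower and 1 higher.

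Among tubular injury genes 5 of 23 were lower and 1 higher (26.1%, against 6.51% of all genes tested), and 1 was called in both arms. Lcn2 encodes neutrophil gelatinase-associated lipocalin, an iron-carrier protein that injured tubules release (chromosome 2, 32384637 to 32387739). It was at 3.86, 4.67 and 5.29 CPM in Control_water, 2.29, 1.7 and 1.97 in Control_captopril, 22.8, 25.2 and 34.4 in GN_water and 4.92, 3.84 and 9.9 in GN_captopril. Within each disease state the groups did not overlap, GN_water lay above all other libraries, and GN_captopril overlapped the controls. The difference was -1.68 ± 0.21, adjusted p = 0.00104 (-1.2 in controls and -2.17 in GN) and held in all 12 fits. Havcr1, or KIM-1, another injury marker of the proximal tubule, was at 2.42, 3.34 and 2.45 CPM in Control_water, 4.49, 1.47 and 1.42 in Control_captopril, 25.2, 21.4 and 27.1 in GN_water and 8.1, 6.31 and 9.4 in GN_captopril. It was called (-0.88 ± 0.23, adjusted p = 0.0415) from GN alone (-0.13 in controls and -1.64 in GN) and in only 3 of the 12 fits. Spp1, osteopontin, was called lower (-0.28 ± 0.061) from large arms of opposite sign (1.5 in controls and -2.06 in GN) and lost its call without GN_water replicate 1 or GN_water replicate 3. The list gave 7 lower without GN_captopril replicate 3, 2 without GN_water replicate 1 or GN_water replicate 3, and 3 without Control_water replicate 2, Control_water replicate 3, Control_captopril replicate 2, Control_captopril replicate 3, GN_water replicate 2 or GN_captopril replicate 2.

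A few genes of low level followed Lcn2 in being lower in both arms. Aoc1, the diamine oxidase that degrades histamine, was at 5.12, 6.61 and 6.0 CPM in Control_water, 3.01, 2.86 and 3.29 in Control_captopril, 22.3, 18.3 and 21.3 in GN_water and 8.63, 6.97 and 10.8 in GN_captopril (-1.09 ± 0.11, adjusted p = 0.000339). Its captopril-labelled values lay below the water-labelled ones in each disease state. Igfbp2, which binds insulin-like growth factors, averaged -1.54 ± 0.22, adjusted p = 0.00225 at 0.698 to 2.25 CPM in Control_water, 0.461 to 0.673 in Control_captopril, 8.47 to 9.24 in GN_water and 2.41 to 3.3 in GN_captopril. Psca, a membrane-anchored antigen, had the largest fall of the lower genes with a mean of at least 1 CPM (-2.29 ± 0.48, adjusted p = 0.0156) but was at 0.0506 to 5.63 CPM and lost its call without Control_water replicate 2. Tenm2, a teneurin (-0.97 ± 0.17, adjusted p = 0.00528), and Ypel2 (-0.91 ± 0.10, adjusted p = 0.000533) separated 6 from 6. Mcm6, a helicase subunit loaded before DNA replication, was lower in both arms (-0.28 ± 0.050, adjusted p = 0.00627). Of 29 proliferation genes 5 were lower (17.2%, against 3.34% of all genes tested). The list gave 4 lower without GN_water replicate 1 or GN_water replicate 3 and 1 to 3 without any other single library.

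The averaged median was -0.43 for macrophage, -0.34 for T and natural killer cell, -0.34 for complement and -0.10 for antigen-presentation genes, against -0.02 over all genes. These medians were 0.000629, 0.09, 0.04 and -0.03 in controls and -0.90, -0.65, -0.68 and -0.30 in GN, in that order. For interferon-response genes the median was -0.05, from 0.33 in controls and -0.43 in GN. It ran from -0.099 to 0.026 with 1 library left out. With all libraries, 8% of the macrophage and 12.5% of the complement genes were called, against 6.51% of all genes tested. No T and natural killer cell, interferon-response or antigen-presentation gene was called. Of 25 macrophage and monocyte genes 2 were lower (Cx3cr1 and Spi1, median of the list -0.43), of 25 T and natural killer cell genes 0, of 42 interferon-response genes 0, of 25 antigen-presentation genes 0 and of 24 complement genes 3, and 0 of any of these lists were higher (edgeR). At an unadjusted p under 0.05 the lower counts were 17, 4, 5, 4 and 9, with 3 interferon-response genes higher. DESeq2 called 7, 0, 0, 0 and 3 lower and 0 higher. With all 12 libraries, edgeR called 6 macrophage genes lower with a replicate block and 5 with no filter on low counts. Leaving out 1 library at a time, the T and natural killer cell and interferon-response lower counts stayed at 0 or 1. The macrophage, complement and antigen-presentation counts were highest without the same library. Without GN_captopril replicate 3, 15 macrophage genes, 10 complement genes and 6 antigen-presentation genes were lower, while without any other single library the macrophage count was 1 to 3. The summed level of the macrophage list was 723 to 1393 CPM in GN_captopril and 1433 to 2118 in GN_water, against 204 to 296 over both control groups. Lyz2, the lysozyme of macrophages, was at 31.7, 32.1 and 34 CPM in Control_water, 21, 32 and 39.6 in Control_captopril, 578, 866 and 701 in GN_water and 263, 257 and 596 in GN_captopril, and the third GN_captopril library reached the level of GN_water (-0.51 ± 0.21, adjusted p = 0.162). C3, the central complement component, likewise stood at 479 CPM in that library against 90.4 and 124 in the other GN_captopril libraries. Leaving out both libraries with the most adrenal markers, GN_captopril replicate 3 being one, gave 17 macrophage genes lower. Vcam1, an adhesion molecule of activated endothelium and tubule, was lower in the average (-0.41 ± 0.075, adjusted p = 0.00658), from GN (0.20 in controls and -1.03 in GN).

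Of the drug's own pathway 1 gene passed the test, or 5.56% of those tested, near the 6.51% of all genes. Of 18 renin, angiotensin and kinin genes tested, 0 were higher and 1 lower by edgeR and by DESeq2, with 4 higher and 2 lower at an unadjusted p under 0.05. The lower one was Agt, the angiotensin precursor, at 76.9 to 95 CPM in Control_water, 81.9 to 97.1 in Control_captopril, 91.5 to 112 in GN_water and 67 to 70.5 in GN_captopril (-0.26 ± 0.068, adjusted p = 0.0388), which held in 4 of 12 fits and came from GN (0.10 in controls and -0.62 in GN). Ace, the enzyme that captopril blocks, was at 355 to 392 CPM in Control_water, 213 to 271 in Control_captopril, 200.1 to 256 in GN_water and 295 to 350.1 in GN_captopril (-0.052 ± 0.072, adjusted p = 0.708), with arms of opposite sign (-0.62 in controls and 0.51 in GN). Agtr1a, the receptor of angiotensin II, averaged 0.062 ± 0.042, adjusted p = 0.395. Klk1, tissue kallikrein, which releases kinins, averaged 0.079 ± 0.047, adjusted p = 0.336, from 0.97 in controls and -0.81 in GN. Of the 14 genes of renin cells and the macula densa 4 were lower and none higher (28.6%, against 3.34% of all genes lower). All 4 had arms of opposite sign, so none was called one way in both arms. Controls and GN gave 0.38 and -1.42 for Avpr1a, 0.045 and -0.71 for Rgs5, -1.22 and 0.38 for Gja5, and -2.51 and 0.34 for Pappa2. Pappa2, a protease of growth-factor binding proteins in the macula densa region, was at 4.24, 2.49 and 4.32 CPM in Control_water, 0.673, 0.507 and 0.759 in Control_captopril, 3.67, 5.43 and 4.15 in GN_water and 5.78, 6.25 and 4.66 in GN_captopril. Only the Control_captopril libraries were low (-1.09 ± 0.18, adjusted p = 0.00407).

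Distal nephron transport was mixed. Of 19 aldosterone and distal transport genes 5 were higher and 2 lower (36.8%, against 6.51% of all genes tested), with 14 higher in controls and 9 lower in GN. All genes tested gave 15.4% higher in controls and 25.5% lower in GN. Sgk1, the kinase that aldosterone and glucocorticoids induce, was at 48.6, 66.7 and 45.5 CPM in Control_water, 86.9, 78.3 and 112 in Control_captopril, 165, 119 and 152 in GN_water and 34.9, 35.4 and 37.7 in GN_captopril. It was called lower (-0.62 ± 0.11, adjusted p = 0.00757) from arms of opposite sign (0.79 in controls and -2.02 in GN). Atp1b1, the beta subunit of the sodium pump, was the 1 member called in both arms, by a small step (0.17 ± 0.037, adjusted p = 0.0176), with all 6 captopril-labelled libraries above the 6 others. Aqp2, the water channel of the collecting duct, averaged -0.61 ± 0.13, adjusted p = 0.0163, from GN (-0.18 in controls and -1.05 in GN). Without Control_water replicate 3 or GN_captopril replicate 1 the list gave 2 higher, and 3 without Control_water replicate 2, Control_captopril replicate 3 or GN_captopril replicate 2. The lower count was 2 or 3 without Control_water replicate 1, Control_captopril replicate 1 or GN_captopril replicate 2 or 3, and was 1 without any other library. Scnn1a, a subunit of the sodium channel ENaC, averaged -0.062 ± 0.046, adjusted p = 0.45, and Slc12a3, the thiazide-sensitive carrier, 0.28 ± 0.082, adjusted p = 0.0573.

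Clock genes gave the largest share of calls among the 49 lists: 14 of 20, or 70%, against 6.51% of all genes, and all 14 held in all 12 fits. The clock is a loop in which BMAL1 (Arntl) with CLOCK or NPAS2 drives the period, cryptochrome and Rev-erb genes through E-boxes, Rev-erb proteins repress Arntl and Nfil3 through ROR elements, and DBP, TEF and HLF oppose NFIL3 at D-boxes. In the average 11 were higher and 3 lower. The higher ones were the outputs Dbp, Tef and Hlf, the repressors Ciart, Per2, Per3, Cry2, Nr1d1, Nr1d2 and Bhlhe41, and, apart from these classes, Rora. The lower ones were Arntl, Npas2 and Nfil3. In GN 13 were higher and 3 lower, while in controls 1 was higher and 5 lower. All genes tested gave 19.6% higher and 25.5% lower in GN, and 15.4% higher and 17% lower in controls. The labels do not give the hour at which kidneys were taken.

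Promoter windows of 5 of these genes show the elements of that loop, 250 bases before to 50 after the start site, from RefSeq on GRCm38.p6, with the matched letters in capitals. They were picked because they hold a match. Ciart (chr3:95882179-95882478, minus strand) holds 3 E-boxes and Bhlhe41 (chr6:145865371-145865670, minus strand) 1, spelled CACGTG, and Per3 (chr4:151044616-151044915, minus strand) holds 2 D-boxes, spelled TTATGTAA or TTACGTAA. Arntl (chr7:113207261-113207560, plus strand) and Nfil3 (chr13:52980990-52981289, minus strand) hold 1 ROR element each, TAGGTCA or TGGGTCA, which lies on the opposite strand in Nfil3.
Ciart: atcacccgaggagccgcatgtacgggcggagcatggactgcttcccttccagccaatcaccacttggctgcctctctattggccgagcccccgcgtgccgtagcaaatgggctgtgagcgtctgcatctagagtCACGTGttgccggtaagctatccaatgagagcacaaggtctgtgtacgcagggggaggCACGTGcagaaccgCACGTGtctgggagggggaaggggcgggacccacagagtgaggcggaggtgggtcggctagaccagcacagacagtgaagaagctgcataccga
Bhlhe41: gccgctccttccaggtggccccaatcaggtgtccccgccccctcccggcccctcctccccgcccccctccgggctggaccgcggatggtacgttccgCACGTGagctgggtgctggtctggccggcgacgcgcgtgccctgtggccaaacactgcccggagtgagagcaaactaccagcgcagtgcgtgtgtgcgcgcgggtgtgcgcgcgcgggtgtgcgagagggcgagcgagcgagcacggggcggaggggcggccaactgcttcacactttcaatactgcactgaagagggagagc
Per3: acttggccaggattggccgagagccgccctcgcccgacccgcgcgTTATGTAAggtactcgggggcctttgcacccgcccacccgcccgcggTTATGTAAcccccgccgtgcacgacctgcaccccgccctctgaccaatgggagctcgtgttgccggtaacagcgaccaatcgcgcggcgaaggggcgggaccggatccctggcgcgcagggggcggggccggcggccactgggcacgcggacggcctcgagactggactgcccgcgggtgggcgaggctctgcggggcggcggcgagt
Arntl: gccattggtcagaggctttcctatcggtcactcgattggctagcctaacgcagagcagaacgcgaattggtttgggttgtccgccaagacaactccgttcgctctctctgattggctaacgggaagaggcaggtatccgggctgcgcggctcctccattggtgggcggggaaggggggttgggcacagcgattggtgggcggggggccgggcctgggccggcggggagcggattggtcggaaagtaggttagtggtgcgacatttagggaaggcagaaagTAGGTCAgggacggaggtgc
Nfil3: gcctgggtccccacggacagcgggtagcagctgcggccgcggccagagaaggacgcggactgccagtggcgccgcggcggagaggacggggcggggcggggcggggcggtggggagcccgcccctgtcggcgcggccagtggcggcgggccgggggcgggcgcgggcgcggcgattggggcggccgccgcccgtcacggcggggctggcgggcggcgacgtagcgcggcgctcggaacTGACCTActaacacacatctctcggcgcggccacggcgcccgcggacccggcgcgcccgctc
Both strands were searched. Of the 17 clock genes tested that have a window, 5 held an E-box, 1 a D-box and 2 a ROR element. The E-box was in 3 of the 10 called higher, in 0 of the 3 called lower and in 2 of the 4 not called (Per1 and Cry1), and both genes with a ROR element were called lower. Of the 11079 genes tested with a window, 11.3% held the E-box, 0.939% a D-box and 6.54% a ROR element. Of all 32851 windows, 7.15% held the E-box, 1.06% a D-box and 6.45% a ROR element. A sterol element, CACCCCAC (2.87% of windows and 3.85% of genes), was in 0 of the 10 called-lower cholesterol genes with a window and in 1 of the 16 tested. A match describes letters and not a bound site.

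Dbp, the first of the output factors, had the smallest adjusted p of the clock genes. It was at 39.2, 49.4 and 59.1 CPM in Control_water, 48, 42.9 and 46.6 in Control_captopril, 10.4, 8.92 and 6.28 in GN_water and 114, 122 and 125 in GN_captopril. GN_captopril was above, and GN_water below, both control groups, which overlapped (-0.10 in controls and 3.81 in GN, average 1.86 ± 0.11, adjusted p = 2.69e-06). Ciart, a repressor of BMAL1, was at 1.4, 1.4 and 2.06 CPM in Control_water, 1.3, 0.875 and 1.72 in Control_captopril, 0.321, 0.288 and 0.148 in GN_water and 5.85, 5.27 and 9.97 in GN_captopril, a low level with the same order (2.21 ± 0.26, adjusted p = 0.000735). Per3 was at 18.5, 18.5 and 20.1 CPM in Control_water, 16.2, 11.8 and 13 in Control_captopril, 4.49, 4.93 and 4.25 in GN_water and 25.2, 22.1 and 27.2 in GN_captopril, and its small control arm had the opposite sign (-0.48 in controls and 2.44 in GN). Nr1d2, Rev-erb-beta, was at 102 to 110.0 CPM in Control_water, 92.8 to 113 in Control_captopril, 50.3 to 52.9 in GN_water and 117 to 133 in GN_captopril (0.63 ± 0.052, adjusted p = 5.67e-05).

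On the lower side, Arntl was at 16.4, 11.9 and 12.1 CPM in Control_water, 16.6, 12.3 and 8.5 in Control_captopril, 17.8, 22 and 21.1 in GN_water and 4.25, 5.27 and 3.16 in GN_captopril. The control groups overlapped, GN_water was highest and GN_captopril lowest (-0.12 in controls and -2.24 in GN, average -1.18 ± 0.16, adjusted p = 0.00165). Nfil3 repeated that order at 11, 7.4 and 4.19 CPM in Control_water, 11.8, 9.26 and 11 in Control_captopril, 17.4, 16.6 and 19 in GN_water and 2.99, 3.13 and 3.37 in GN_captopril (-1.0 ± 0.17, adjusted p = 0.00528). Arntl and Nfil3 have a ROR element in the windows above, which were picked for holding a match, while Npas2, also lower, has none. The motifs were narrowed after matches were seen, and a link between motif and change was not tested. Only Npas2 and Bhlhe41 were called in both arms. Npas2 was at 13, 10.6 and 9.99 CPM in Control_water, 6.01, 5.53 and 4.6 in Control_captopril, 13.1, 9.91 and 12 in GN_water and 4.52, 5.6 and 2.01 in GN_captopril, with all 6 captopril-labelled libraries below the 6 others (-1.28 ± 0.17, adjusted p = 0.00151). Bhlhe41, also known as DEC2, was at 2.19, 2.18 and 2.51 CPM in Control_water, 4.17, 3.55 and 4.35 in Control_captopril, 2.43, 2.96 and 1.88 in GN_water and 4.18, 4.44 and 5.02 in GN_captopril, with the 6 above (0.85 ± 0.13, adjusted p = 0.00241). Wee1, a cell-cycle kinase known as a clock target, was named after its value was seen: it was higher in both arms (0.55 ± 0.11, adjusted p = 0.0124). Per1 differed in sign from Per2 and did not pass (-0.18 ± 0.25, adjusted p = 0.712). Control_captopril replicate 3 was at 41.4 CPM of it, against 12.8 and 13.3 in the other Control_captopril libraries, and without that library Per1 in the captopril average was called lower (-0.57, adjusted p = 0.0232).

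**Figure D3:**
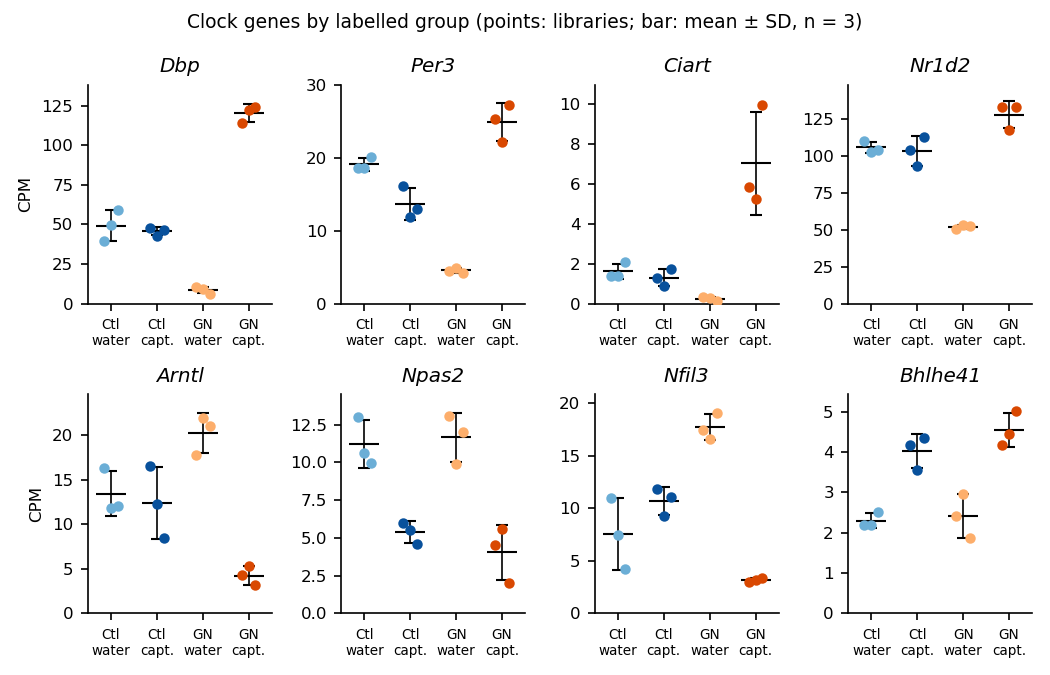
CPM (vertical, from 0) of 8 clock genes by labelled group, with points for libraries and bars for mean ± SD of 3. Dbp, Per3, Ciart and Nr1d2 are highest and Arntl and Nfil3 lowest in GN_captopril with overlapping or near control groups, while Npas2 and Bhlhe41 follow the treatment label in controls and GN alike.

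Gene lists read as medians show which arm carries the average. The control arm was near 0 for matrix (0.02), macrophage (0.000629), complement (0.04) and proliferation genes (-0.04) while their GN arm fell by 0.74, 0.90, 0.68 and 0.83. Clock genes had -0.13 in controls and 0.81 in GN. Sterol genes showed the reverse, with -0.51 in controls and -0.02 in GN. Fatty acid oxidation was positive in both (0.13 and 0.32). For renin, angiotensin and kinin genes the medians were 0.04 and 0.13. The signs of the averaged medians of these lists did not change with the other scalings of library size.

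**Figure D4:**
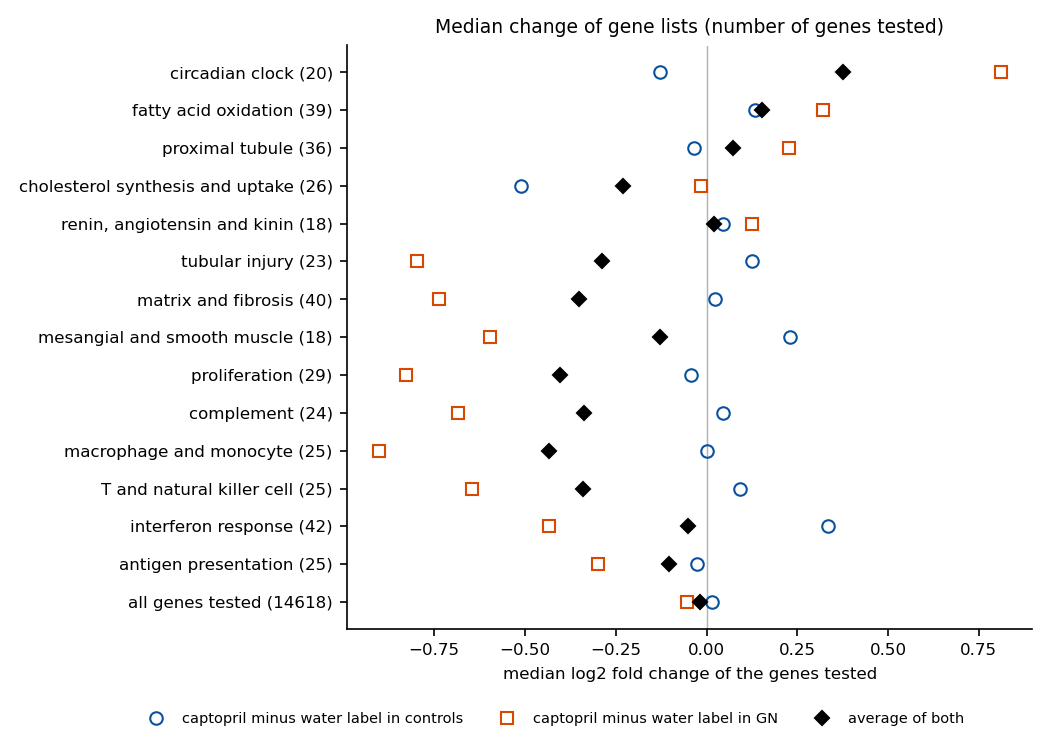
Median log2 fold change (horizontal) of the genes tested in 14 lists and over all genes, for controls (circles), GN (squares) and their average (diamonds). Clock genes lie to the right and matrix, complement, proliferation and immune genes to the left in GN, while the sterol list lies to the left in controls.

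Some of the largest differences rested on single libraries. The 3 adrenal cortex genes called higher, of 15 tested (20%, against 3.17% of all genes), were Hsd3b1 (9.47 ± 2.26, adjusted p = 0.0271), Cyp11a1 (6.62 ± 1.66, adjusted p = 0.0339) and Star (4.85 ± 1.23, adjusted p = 0.0358), all steroid-making. Hsd3b1 was at 0, 0.0607 and 0 CPM in Control_water, 1.7, 0.0461 and 79.9 in Control_captopril, 0, 0 and 0.0494 in GN_water and 0, 4.17 and 27.1 in GN_captopril. Control_captopril replicate 3 and GN_captopril replicate 3 supplied most of it, and each of the 3 calls was lost without either of them, without any GN_water library or without Control_water replicate 2 or 3. With Control_captopril replicate 1 or 2 left out 5 of the list were called. With Control_captopril replicate 3 and GN_captopril replicate 3 both left out Hsd3b1 was called higher (adjusted p = 0.0345) and 1 gene of the list lower, and with GN_captopril replicate 2 left out as well Hsd3b1 was not called. Fitted fold changes from groups at or near 0 depend on the prior count and are no measure of size. Cyp21a1, another gene of the adrenal cortex, gave 10.17 ± 2.78, adjusted p = 0.0532. The fat cell hormone Adipoq varied within every group (2.12 to 8.45 CPM in Control_water, 5.2 to 17.3 in Control_captopril, 0.198 to 13.8 in GN_water and 0 to 35.5 in GN_captopril, 1.01 ± 0.73, adjusted p = 0.432).

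Of lower genes with a large change, several held in few of the 12 fits. Slc14a2, the urea transporter of the inner medulla, was at 31.8, 67.2 and 35.7 CPM in Control_water, 29, 8.89 and 6.12 in Control_captopril, 65.2, 24.8 and 88.9 in GN_water and 22.4, 22.1 and 32.1 in GN_captopril (-1.41 ± 0.37, adjusted p = 0.0404) and held in 4. It stands with 3 other kidney medulla genes called lower, of 15 tested (26.7% with it, against 3.34% of all genes). The list gave 1 or 2 lower without Control_water replicate 2 or 3, Control_captopril replicate 2 or 3, GN_water replicate 1 or 3, or GN_captopril replicate 1 or 2. Medulla sums were 1030.4 to 1403 CPM in controls, 1199 to 1524 in GN_water and 1106 to 1143 in GN_captopril, and the part of medulla tissue in these results was not tested. Rph3a (-1.52 ± 0.40, adjusted p = 0.0431) held in 3, Dclk1 (-1.04 ± 0.26, adjusted p = 0.0316) in 4, Dennd1c (-0.92 ± 0.23, adjusted p = 0.0358) in 4 and Cd22, a B cell receptor (-0.97 ± 0.26, adjusted p = 0.0455), in 2. Galr2, a galanin receptor, held in 5 and had arms of opposite sign (3.16 in controls and -5.84 in GN). Sprr1a, a cornified-envelope protein of stressed epithelium (-1.46 ± 0.28, adjusted p = 0.00881), Ccdc106 (-0.86 ± 0.19, adjusted p = 0.0173) and Aim1l (1.33 ± 0.19, adjusted p = 0.0022) held in all 12.

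The number of calls moved with the library left out. Higher calls ran from 239 without Control_water replicate 2 to 765 without Control_water replicate 1, and lower calls from 219 without GN_water replicate 3 to 721 without Control_water replicate 1. Changes of more than 1.5 times in higher calls also came without Control_water replicate 3 (282), Control_captopril replicate 1 (275), Control_captopril replicate 2 (700), Control_captopril replicate 3 (300) and GN_captopril replicate 1 (297). In lower calls they came without Control_water replicate 2 (285), Control_water replicate 3 (294), Control_captopril replicate 1 (300), Control_captopril replicate 3 (324), GN_water replicate 1 (239), GN_water replicate 2 (252) and GN_captopril replicate 1 (307). Of the 952 genes, 453 lost the call without Control_water replicate 2 and 87 without Control_water replicate 1. The count called in both arms ran from 76 without Control_water replicate 2 to 169 without Control_water replicate 1. With the 2 libraries of most adrenal markers left out, 596 of the 952 calls were kept (382 higher and 435 lower in all), and with all 3 left out 308 (205 and 228).

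**Figure D5:**
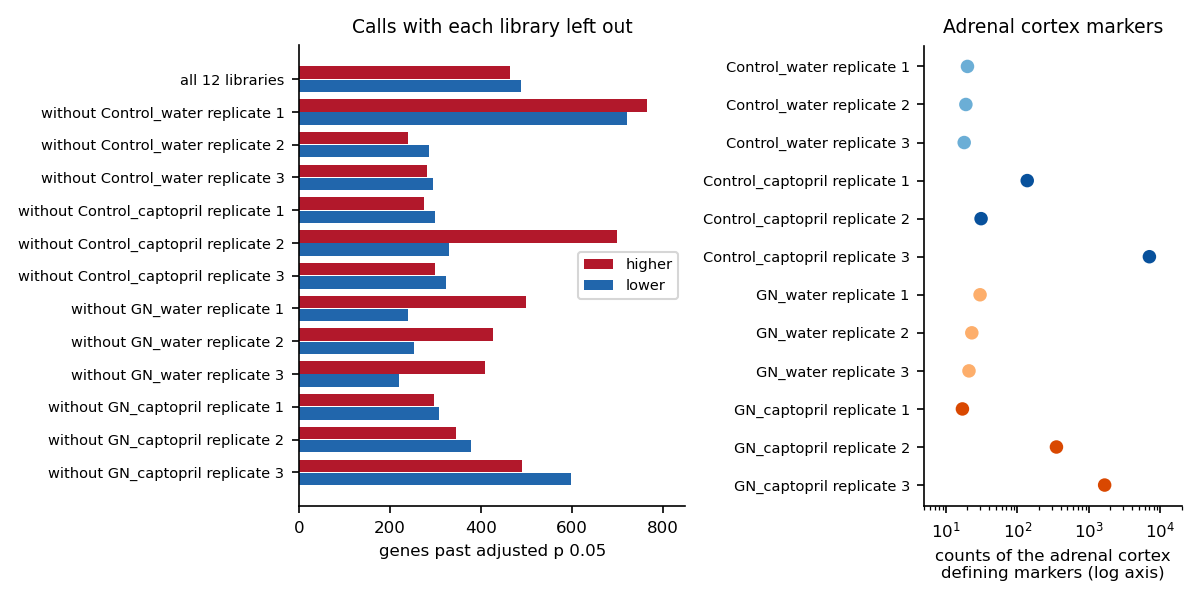
Left, genes past adjusted p 0.05 in the average (horizontal, bars from 0) with all 12 libraries and with each left out; right, counts of 7 adrenal cortex markers per library (log axis). Calls range from 239 to 765 higher and 219 to 721 lower, and the highest adrenal marker counts are 7000 and 1657, both in captopril-labelled libraries.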

How the data were processed

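The authors deposited expected (estimated) counts per gene symbol for 12 stranded mRNA libraries and a table of RPKM, which was not used here. The submitters' processing notes name Bowtie2, Partek and mm10, without versions, annotation or filters. Of the deposited estimated counts 13.6% were not whole and all were rounded, and near-identical paralogs can share reads. Groups came from the labels.

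Of 24452 symbols, 14618 passed filterByExpr (minimum count 10, minimum total 15, over 4 groups). Library sizes were adjusted by TMM, and edgeR 4.0.16 (R 4.3.3) fitted quasi-likelihood models with 1 mean per group, with Benjamini-Hochberg adjustment over all genes and a threshold of 0.05, two-sided. The steps were tested on simulated counts. SE was the log2 fold change over the square root of F. CPM used TMM-adjusted totals. Depth was 14.2 to 22.8 M counts. Replicates of a group had Spearman's rho of 0.991 to 0.996 across genes, and their counts differed beyond counting error (chi-square per degree of freedom 5.32 to 14.5).

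The comparison and the 49 gene lists were chosen with earlier results of these data known. Genes named by rule were the 8 highest and 8 lowest calls with a mean of at least 1 CPM, 10 each way called in both arms, up to 4 called per list, 25 kidney genes and those dependent on libraries. Of the list part only some are named (some items are not reported here), and others were added after their values were seen (Vnn1, Slc22a5, Gpd1, Pex11a, Azin1, Ppard, Tkfc, Slc2a5, Mgp, Col12a1, C7, Wee1). A first motif search with more motifs and spellings was narrowed after its matches were seen. The adrenal sum was cut to 7 defining markers after a longer list had been summed. Symbols were placed with RefSeq on GRCm38 (14575 of 14618).

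Alternatives were other scalings and filters, DESeq2 1.42.0, a replicate block, a model with disease and treatment terms, each library left out, both libraries with the most adrenal markers left out, and, chosen after seeing the data, 3 left out. Figures were drawn with matplotlib 3.10.9.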

Additional observations from a re-analysis of the deposited data

Results flagged for a closer look

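For 36 of the named genes called in the average, the captopril difference itself differed between GN and controls by the interaction test (edgeR, adjusted p from 9.94e-11 for Spp1 to 0.0431 for Col18a1), which 50.7% of all genes tested also passed. The values below are the GN arm minus the control arm on the log2 scale. By construction this difference sets the libraries with Y-linked transcripts against those with Xist, so the markers and the disease dependence of the treatment label cannot be told apart.

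Clock genes gave Ciart 5.05, Dbp 3.91, Per3 2.92, Tef 2.02, Per2 1.95, Hlf 1.44, Nr1d2 1.33, Cry2 1.07, Rora 0.86, Arntl -2.12 and Nfil3 -2.96. Among metabolic genes the values were Cpt1a 0.86, Ehhadh 0.57, Slc25a20 -0.43 and Pck1 -0.78. Sterol and lipid regulators gave Srebf1 1.10, Msmo1 0.60 and Cyp51 -0.99. Matrix, adhesion and injury genes gave Acta2 -0.96, Sparc -0.84, Col18a1 -0.31, Vcam1 -1.23, Havcr1 -1.51 and Spp1 -3.56. Distal and renin-angiotensin genes gave Sgk1 -2.80, Pappa2 2.84, Avpr1a -1.81, Aqp2 -0.87 and Agt -0.72. The macrophage genes Cx3cr1 and Spi1 gave -0.64 and -0.89. The remaining genes were Galr2 -9.0, Aim1l 3.18, Sprr1a -1.73, Ypel2 -0.82 and Tgm1 0.76.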

How the results depend on the processing

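The comparison gave 464 genes higher and 488 lower. A model with only disease and treatment terms gave 9 higher and 13 lower, because the difference between the arms then counts as spread. Without the 3 libraries with the most adrenal markers, chosen after seeing the data, the counts were 205 and 228, with 57 genes called in both arms. Leaving out 1 library at a time gave 239 to 765 higher, 219 to 721 lower and 76 to 169 in both arms. Scaling by RLE gave 513 and 430, by upper quartile 444 and 494, no filter 415 and 463, a filter at 1 CPM in 3 libraries 446 and 531, DESeq2 696 and 567. With a replicate block the counts were 556 and 575, with 138 in both arms. Same-numbered libraries did not deviate together (18 pairs, correlation -0.235 to 0.236), so the numbers were not read as pairing, and no paired result is given beside a gene. Of 2079 values of 99 named genes under alternatives, 222 lost and 21 gained a call and 6 changed sign, all of genes not called. Leaving out 1 library, Ace ran from -0.09 to 0.032 and Ccl2 from -0.44 to 0.019, with positive values of Ace 0.022 without Control_captopril replicate 2 and 0.032 without GN_water replicate 1, Ccl2 0.019 without Control_water replicate 3 and 0.0094 without Control_captopril replicate 1, and without the 3 adrenal-marked libraries Akr1b7 -0.091 and Adipoq -4.80. The cause of these changes was not tested. Depth limits genes under about 1 CPM most.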
